A study of Caenorhabditis elegans with 2 samples.

Results

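In embryos of the worm Caenorhabditis elegans, candidate peaks for the nuclear hormone receptor NHR-76 were examined where they lie next to annotated noncoding RNA (ncRNA) genes, away from tRNA genes, snoRNA genes and protein-coding promoters. The 369 peaks were chosen by the authors' pooled signal value and by position: a nuclear candidate peak was taken if its signal (given by the authors for each peak, on a scale the files do not name) was 7 or more, its summit lay within 500 bp of a gene of biotype ncRNA, and its summit lay over 500 bp from every tRNA gene, snoRNA gene and protein-coding transcript 5′ end (Ensembl WBcel235). They are called the ncRNA-gene peaks here, and they are 369 of 30000 pooled candidates. Chromatin immunoprecipitation followed by sequencing (ChIP-seq) was done on mixed-stage embryos of both sexes of strain OP203, genotype unc-119(ed3) III; wgIs203, a line that stably expresses NHR-76 from a transgene with GFP and FLAG at its C terminus. The 2 libraries are biological replicates 1 and 2 of this 1 group, and both carry the transgene and the unc-119 mutation. There is no second genotype or condition, and each library comes from whole embryos, so the cells behind a signal cannot be told apart. Signal and position chose the peaks, so both are given below as descriptions, with no test.

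Nuclear hormone receptors are transcription factors with a zinc-finger domain that reads short DNA half-sites, and C. elegans has an unusually large family of them. NHR-76 is known for a part in fat loss in the adult intestine. The biotype ncRNA gathers worm genes for noncoding transcripts that the annotation puts in no named class. Most are short: 6315 of the 7764 genes of this biotype are under 200 bp, and the median length is 140 bp. A few have known roles in basic RNA biology, such as the RNA parts of RNase P, which trims tRNA precursors, and of the signal recognition particle, which guides new proteins to membranes.

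The reference sequence under the summits of 6 of the strongest of these peaks is shown because it makes plain how differently they sit on their genes. Each line gives 100 bp on each side of the summit from the RefSeq WBcel235 genome (the assembly also called ce11), plus strand, and capitals mark bases inside an annotated ncRNA gene.
F36H1.17 (chrIV:11026096-11026296): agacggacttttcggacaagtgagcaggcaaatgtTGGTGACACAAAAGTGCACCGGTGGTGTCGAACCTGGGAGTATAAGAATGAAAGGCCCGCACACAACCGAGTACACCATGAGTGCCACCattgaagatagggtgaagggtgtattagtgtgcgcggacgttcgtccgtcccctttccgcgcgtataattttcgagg
F26F4.14 (chrIII:4899795-4899995): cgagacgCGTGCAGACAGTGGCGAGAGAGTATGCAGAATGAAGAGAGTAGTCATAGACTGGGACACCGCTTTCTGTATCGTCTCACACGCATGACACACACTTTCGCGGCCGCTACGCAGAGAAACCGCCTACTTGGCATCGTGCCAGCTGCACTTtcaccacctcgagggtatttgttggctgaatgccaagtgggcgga
Y67D8A.6 (chrIV:3232799-3232999): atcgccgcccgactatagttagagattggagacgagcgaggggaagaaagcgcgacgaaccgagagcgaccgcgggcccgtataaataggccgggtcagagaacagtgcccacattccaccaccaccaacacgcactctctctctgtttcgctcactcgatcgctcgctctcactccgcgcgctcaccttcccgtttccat
Y48B6A.23 (chrII:14249576-14249776): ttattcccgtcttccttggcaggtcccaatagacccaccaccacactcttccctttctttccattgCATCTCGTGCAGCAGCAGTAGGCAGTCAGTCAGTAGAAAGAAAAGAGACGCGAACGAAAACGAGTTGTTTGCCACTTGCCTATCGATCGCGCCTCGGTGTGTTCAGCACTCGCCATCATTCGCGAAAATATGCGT
F44E5.14 (chrII:11749840-11750040): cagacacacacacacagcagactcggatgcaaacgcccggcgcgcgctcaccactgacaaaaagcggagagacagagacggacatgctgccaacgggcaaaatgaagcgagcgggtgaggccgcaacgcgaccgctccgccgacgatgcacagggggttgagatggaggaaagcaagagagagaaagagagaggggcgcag
K10H10.14 (chrII:14496932-14497132): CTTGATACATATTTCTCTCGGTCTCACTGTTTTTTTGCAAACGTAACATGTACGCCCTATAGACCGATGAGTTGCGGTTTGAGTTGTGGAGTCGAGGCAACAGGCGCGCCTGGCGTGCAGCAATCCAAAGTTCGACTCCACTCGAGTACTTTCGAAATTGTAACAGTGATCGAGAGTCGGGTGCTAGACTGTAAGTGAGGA
In F36H1.17 the whole 89-bp gene lies in the middle of the window, with a match to the tRNA B box, part of the promoter that RNA polymerase III uses inside its genes, at bases 60 to 68. The K10H10.14 window lies wholly within its gene and holds a B box match at bases 130 to 138. F26F4.14 has 149 of the 201 bases in the gene, with the hexamer GAGAGA at bases 23 to 28. Y48B6A.23 has 135 bases in its gene and no match to any motif searched. The windows of Y67D8A.6 and F44E5.14 hold no base of an ncRNA gene. F44E5.14 has 4 GAGAGA matches on one strand or the other, the first at bases 67 to 72, and Y67D8A.6 has a match to the GC box GGGCGG at bases 5 to 10. Y67D8A.6 also holds TATAAA at bases 81 to 86 and GAGAGA matches from base 137. Further matches were a GC box in F26F4.14 at bases 195 to 200, and GAGAGA at bases 14 to 19 and TTTTTT from base 30 in K10H10.14. A match is a description of the letters and not a binding site.

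The lists of the 2 replicates differed in length. Replicate 1 listed 7516 peaks and replicate 2 listed 30000, and read depth is unknown, so these lengths cannot be tied to reads. The pooled list also held 30000, and whether a limit set these lengths is not known. Of the pooled nuclear candidates, 3997 of 29979 (13.3%) had a signal of 7 or more. Among those 3997, 646 had an ncRNA gene within 500 bp, of which 130 were also near a tRNA or snoRNA gene and 179 near a protein-coding 5′ end (32 near both), which leaves the 369.

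The strongest ncRNA-gene peak was at rpr-1, the gene for the RNA subunit of RNase P. Its pooled signal was 39.6, and it ranked 29 of all pooled candidates. The peak spanned chrI:13463802-13464141, with its summit 17 bp inside the gene from the 5′ end, and rpr-1 lies in an intron of ints-8 (an Integrator complex subunit) on the opposite strand. It ranked 24 in replicate 1 (signal 12.2) and 34 in replicate 2 (30.4). Both replicates thus held it among their strongest peaks.

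F36H1.17 came next, with a pooled signal of 36.6 at chrIV:11026026-11026365. It ranked 290 in replicate 1 (5.68) and 36 in replicate 2 (29.9). The gene is an unclassified ncRNA, and the 5′ end of the microRNA gene mir-51 lies 84 bp from the summit. F46F2.12, at chrX:15275347-15275686 in an intron of kin-20 (a casein kinase 1 gene), had a pooled signal of 30.1, with 10.1 in replicate 1 and 21.1 in replicate 2. This summit lies in repeated sequence: the 31 bases centred on it occur 1294 times in the genome, on both strands together. Reads from such a repeat can be placed at several sites, and its part in the signal was not tested.

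The other peaks of the 12 strongest had pooled signals from 18.8 to 25.5. F26F4.14 (chrIII:4899725-4900064) and Y48B6A.23 (chrII:14249506-14249845) had their summits inside the gene, with signals of 23.2 and 22.2. At Y67D8A.6 (chrIV:3232729-3233068, 22.6) the summit lay 263 bp upstream of the gene, in an intron of Y67D8A.2. C26C6.12 (25.5) had its summit 157 bp upstream, in an intron of pbrm-1, a polybromodomain gene. T28F4.7 (22.5) and F48C1.12 (20.4) had theirs 17 and 61 bp downstream of the gene, in introns of T28F4.1 and of let-526, an ARID-domain chromatin gene. F44E5.14 (19.9), H34C03.18 (19.5) and K10H10.14 (18.8) had summits outside protein-coding genes. The K10H10.14 summit lay inside its ncRNA gene, the F44E5.14 summit 350 bp upstream and the H34C03.18 summit 208 bp downstream of theirs.

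**Figure D1:**
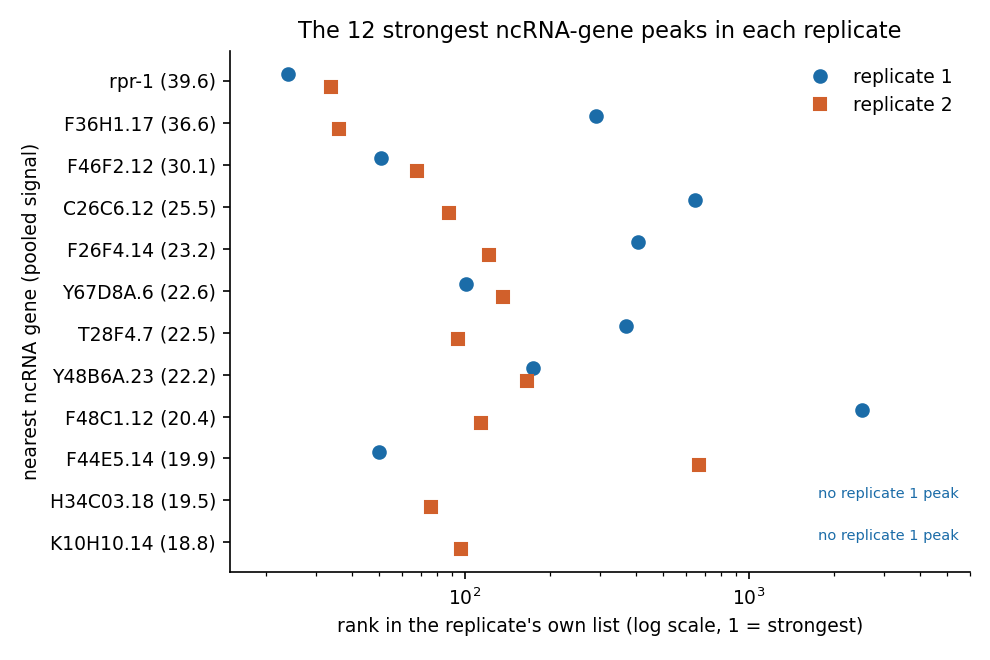
Rank of the 12 strongest ncRNA-gene peaks in the list of replicate 1 (circles) and of replicate 2 (squares), on a log axis where 1 is the strongest peak of that list; the pooled signal stands beside each gene. rpr-1 ranked 24 and 34, F44E5.14 ranked 50 in replicate 1 but 670 in replicate 2, and H34C03.18 and K10H10.14 had no peak in replicate 1.

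The replicates ordered these peaks differently. F44E5.14 ranked 50 in replicate 1 (signal 10.2) and 670 in replicate 2 (9.98). F48C1.12 was the reverse, with rank 2515 in replicate 1 and 114 in replicate 2. H34C03.18 and K10H10.14 ranked 76 and 97 in replicate 2, and replicate 1 listed no peak there. Of the 12, 10 were listed in both replicates.

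Across all 369 peaks, 127 overlapped a peak of replicate 1 (34.4%, exact Clopper-Pearson 95% interval 29.6% to 39.5%), against 35.5% of all nuclear candidates with signal 7 or more. For replicate 2 the count was 352 (95.4%, interval 92.7% to 97.3%), against 94.6%. The shares of the ncRNA-gene peaks are thus close to the background in both lists. Both replicates listed 117, replicate 2 alone 235, replicate 1 alone 10, and neither listed 7. These intervals, and those below, cover counting error over peaks only.

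Stronger peaks were listed in replicate 1 more often, both here and in candidates of signal 7 or more that meet the same exclusions but have no ncRNA gene within reach. At signals of 10 or more 57.9% of the ncRNA-gene peaks were listed (interval 48.5% to 66.8%), against 47.3% of 408 such candidates (42.4% to 52.3%), and at 7 to 10 it was 23% (17.9% to 28.7%) against 26.1% (24% to 28.2%). The pooled signal behind these bands also chose the peaks. Of the 117 peaks with signals from 7 to 8, 24 were listed in replicate 1 (20.5%), and of the 98 with signals from 10 to 15, 50 were (51.0%). All 9 peaks of signal 20 or more were listed in both replicates. Among the 117 peaks listed in both, the replicate signals had a Spearman rho of 0.14, given as a description because the peaks share libraries. Some peaks also share a replicate peak, 16 of the 369 in replicate 1 and 22 in replicate 2. Both ranks were within 500 for 12 peaks.

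Of the 369 peaks, 10 overlapped a peak of the authors' optimal list, the 1 thresholded by the irreproducible discovery rate (2.71%, interval 1.31% to 4.93%), against 3.15% of all nuclear candidates with signal 7 or more. The share is near that background. The 9 with the highest signal, from rpr-1 down to F48C1.12, stood on that list with the same start and end. The tenth was a second peak at Y48B6A.23 (signal 8.27), which overlapped the stronger one. Signals of the 369 ran from 7 to 39.6 with a median of 8.69, and 121 reached 10.

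Just inside the threshold stood F36D4.9 and R08D7.8 (both 7.003) and Y69A2AR.43 (7.02). Just outside stood T05E11.10 (6.999), T26H10.6 (6.99) and T04F8.11 (6.98). None of these 6 was listed in replicate 1. In replicate 2 the 3 just inside had signals of 5.19, 5.14 and 5.49, and the 3 just outside 7.63, 7.13 and 6.97, so the order at the threshold is not the order in replicate 2.

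ncRNA genes with a functional name were looked up in any case. Beside rpr-1, 2 genes for signal recognition particle RNA were the nearest ncRNA genes of ncRNA-gene peaks. At srpr-1.2 (9.26) the summit lay inside the gene, in an intron of ckb-2, a choline kinase gene. At srpr-1.1 (8.56) the summit lay 442 bp downstream, in a coding exon of pals-26 on the opposite strand. Replicate 1 gave 2.61 and 3.63 there, and replicate 2 gave 6.42 and 4.32. The 31 bases at the srpr-1.2 summit occur 2 times in the genome, so reads could be shared with a copy. The strongest candidate near srpr-3 had a signal of 4.56, and near srpr-2.2 2.92, and srpr-2.1 had no candidate within 500 bp.

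The other named ncRNA genes looked up had no ncRNA-gene peak. The RNase MRP RNA gene mrpr-1 had a strongest candidate of 3.93, close to a protein-coding 5′ end. The starvation-induced rncs-1 had 5.30 and linc-171 had 3.89. For lfor-1 a candidate of signal 11.6 lay 11 bp from a tRNA or snoRNA gene and was left out by the rule, and lfor-2 had a strongest candidate of 4.86. The Y RNA gene yrn-1 and the long ncRNA genes tts-1 and tts-2 had no candidate within 500 bp, which says only that none was listed.

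A subset of the peaks also lay near microRNA genes, 14 of 369 (3.79%, interval 2.09% to 6.28%), against 1.24% of 1537 weaker candidates in the same position classes. They were looked at after their values were seen and without a wider background. The weaker candidates were set apart by the signal that the rule used. The count takes in 3 neighbouring peaks at 1 microRNA cluster, given below. MicroRNAs are short RNAs that lower the output of matching mRNAs, and several of the families found here are abundant in worm embryos. Beside mir-51 at F36H1.17, members of the mir-51 family lay near the peaks at Y37A1B.330 (signal 15.4, mir-52 at 133 bp) and F09A5.11 (15.3, mir-54 at 279 bp). The mir-58 family was represented by mir-58a, 355 bp from the Y67D8A.6 summit, and by mir-80 under the peak at K01F9.6 (8.13).

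The mir-35 to mir-40 cluster, whose family acts in embryonic development, carried 3 overlapping or adjoining peaks within chrII:11537135-11537925, in an intron of Y62F5A.9. Their signals were 12.8, 9.14 and 8.29, with summits 303, 90 and 52 bp from mir-35. Replicate 2 listed all 3 and replicate 1 listed 2 of them, with 1 replicate 1 peak behind both and 1 replicate 2 peak behind the first 2. Further peaks lay near mir-42 to mir-44 (ZK930.12, 12.9, mir-42 at 111 bp) and mir-57 (T09A5.19, 12.2, 221 bp). The summit at T24D8.14 (10.3) lay inside mir-73, with mir-74 at 229 bp. Closer to the 500 bp limit were mir-1, the muscle microRNA (T09B4.17, 13.6, 461 bp), mir-90 (K01F9.7, 17.3, 439 bp) and mir-71 (F16A11.8, 8.96, 413 bp).

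Small nuclear RNA genes were near 6 of the peaks (1.63%, against 0.846% of the weaker candidates), again seen after the fact and without a wider background. The gene F38E11.11 was counted at 2 neighbouring peaks. Among the small nuclear RNA genes, 2 encode spliced leader RNA, which donates the first exon of many worm mRNAs. They were sls-2.4, 9 bp from the summit at R12E2.18 (signal 18.1), and sls-2.2, 1 bp from the summit at C17C3.23 (12.5). The summit at C15F1.14 (12.1) lay inside sup-39, a U1 snRNA gene. The 31 bases at the C15F1.14 summit occur 9 times in the genome and those at C17C3.23 3 times.

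Candidates on or close to ncRNA genes reached a signal of 7 more often. Inside an ncRNA gene 123 of 451 candidates did so (27.3%, interval 23.2% to 31.6%), at 1 to 100 bp 94 of 432 (21.8%, 18% to 26%), and at 101 to 500 bp 152 of 1023 (14.9%, 12.7% to 17.2%). Beyond 500 bp it was 2133 of 19284 (11.1%, 10.6% to 11.5%). All of these are candidates clear of tRNA genes, snoRNA genes and protein-coding 5′ ends by the same rule. The rule used both signal and distance, and no test is attached.

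**Figure D2:**
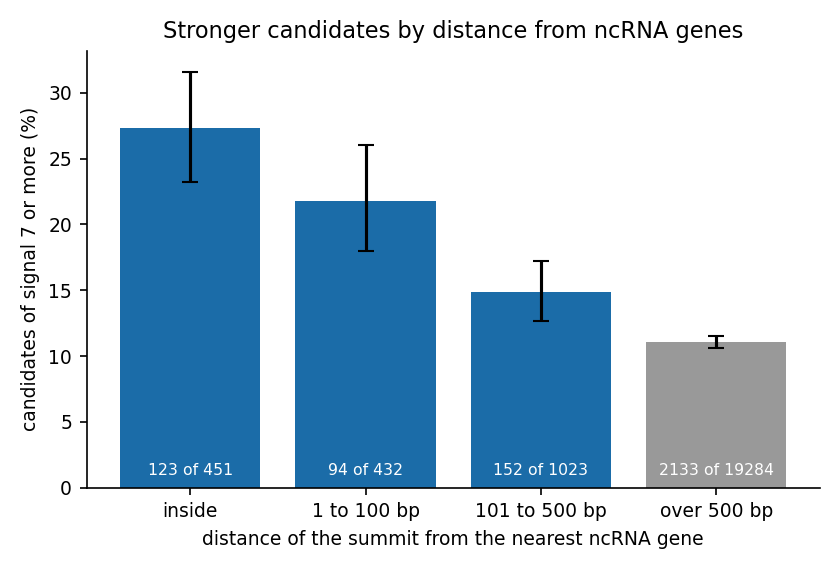
Share of nuclear candidates with signal 7 or more, by distance of the summit from the nearest ncRNA gene, among candidates over 500 bp from tRNA genes, snoRNA genes and protein-coding 5′ ends. Bars are percentages with exact 95% binomial intervals; they go down from 27.3% inside a gene to 11.1% beyond 500 bp.

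Read the other way, ncRNA genes were near 14.7% of the clear candidates with signal 7 or more (369 of 2502), 22.9% of those with 10 or more (121 of 529) and 26.5% of those with 20 or more (9 of 34). For scale, 8.99% of all 21190 clear candidates and 6.30% of the clear nuclear bases lie within 500 bp of an ncRNA gene. With the same number of strongest nuclear peaks taken from a single replicate, the share was 13.9% without replicate 1 and 10.7% without replicate 2.

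Among the 369 peaks themselves, 123 summits (33.3%, interval 28.5% to 38.4%) lay inside an ncRNA gene, and 217 inside or within 100 bp (58.8%). Of the weaker candidates near ncRNA genes, 328 of 1537 (21.3%) had their summit inside. The ncRNA genes make up 16.8% of the clear sequence within 500 bp of them. Of the 369 peaks, 125 had summits upstream and 121 downstream of the nearest gene, so the numbers on both sides were nearly equal. The median pooled signal was 9.08 inside the genes, 8.70 at 1 to 100 bp and 8.40 at 101 to 500 bp. Median GC content in the 201-bp window was 48.8%, 45.3% and 41.5% in the same order.

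**Figure D3:**
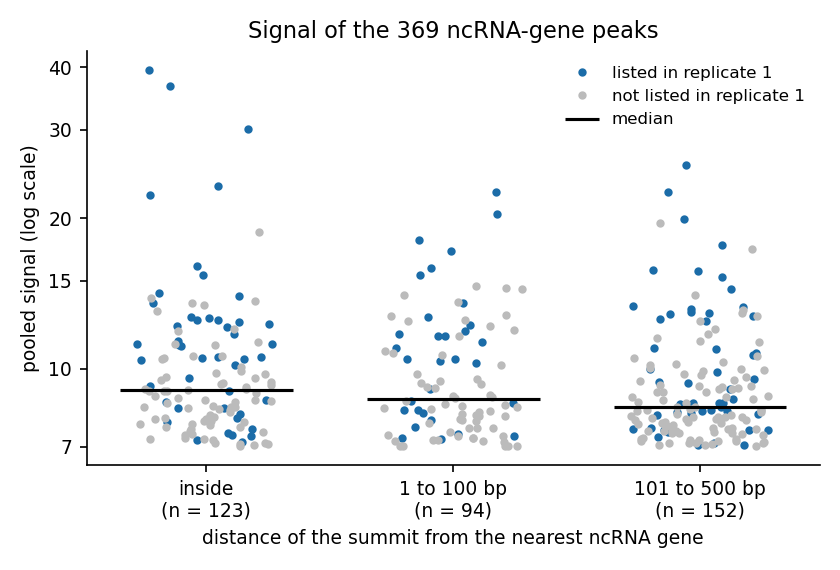
Pooled signal (log axis) of each of the 369 ncRNA-gene peaks by distance of the summit from the nearest ncRNA gene; black lines are medians, and dark points overlap a peak of replicate 1. Medians are 9.08, 8.70 and 8.40, the groups overlap over most of their range, and the 3 peaks of signal 30 or more are all inside a gene.

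Protein-coding annotation placed 215 summits (58.3%, interval 53% to 63.3%) between genes, 121 (32.8%) in introns, 28 (7.59%) in coding exons and 5 (1.36%) in 3′ UTRs. In the 2133 candidates of signal 7 or more that meet the same exclusions but have no ncRNA gene within 500 bp, called the ncRNA-free peaks below, 31.5% were intergenic, 29.4% intronic and 35.6% in coding exons. The 1537 weaker candidates near ncRNA genes resembled the ncRNA-gene peaks, with 53.9%, 32.7% and 11.1%. At 153 summits within protein-coding genes of 1 orientation, the nearest ncRNA gene ran on the opposite strand in 105 cases and on the same strand in 48. In the weaker candidates near ncRNA genes the counts were 511 and 191, with the same lean.

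The X chromosome held 108 of the peaks (29.3%, interval 24.7% to 34.2%), against 18.2% of the ncRNA-free peaks. X also holds 2520 of the 7764 ncRNA genes, and 31.3% of the clear sequence near them. Per megabase of that sequence the peaks numbered 71.8 on X, against 76.7 over all 6 nuclear chromosomes. Chromosome I had the most, 118 per megabase, and chromosome V the fewest, 52.5. The central part of each chromosome, covering the middle 50% of its length, held 251 of the 369 (68.0%), against 56.4% of the ncRNA-free peaks and 65.4% of the weaker candidates near ncRNA genes.

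The sequence under the summit was not used by the rule. Median GC content was 44.8% in the ncRNA-gene peaks, from 26.4% to 62.7%, against 41.3% in the ncRNA-free peaks, 39.3% in the weaker candidates near ncRNA genes and 38.3% in all nuclear candidates. The 31 bases at the summit occurred once in the genome for 360 of the 369 (97.6%), against 98.9% of the ncRNA-free peaks.

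In all, 11 motifs were searched on both strands within 100 bp of the summit, and matches of different motifs may overlap. The GAGA repeat, GAGAGA, a pattern common in worm promoters, was in 127 of 369 windows (34.4%, interval 29.6% to 39.5%), against 20.3% of the ncRNA-free peaks (18.6% to 22%), 20.2% of the weaker candidates near ncRNA genes and 14.9% of all nuclear candidates. The intervals of the ncRNA-gene and ncRNA-free peaks do not overlap, but they cover counting over peaks only, and some of the peaks overlap each other. The weaker candidates were set apart by the signal that the rule used, and GAGAGA was more frequent at higher signal. The GC box GGGCGG, a site of Sp1-like factors, was in 41 windows (11.1%, 8.09% to 14.8%), against 4.5% (3.66% to 5.47%), 5.66% and 4.32%.

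Both motifs are richer in G and C than the genome, so they were also counted within steps of GC content. In windows of 50% GC or more, GAGAGA was in 49 of 91 ncRNA-gene peaks (53.8%, interval 43.1% to 64.4%), against 31.3% of 243 ncRNA-free peaks (25.5% to 37.5%). From 40% to 50% the shares were 33.3% (26.4% to 40.8%) against 23.7% (21.1% to 26.5%), and under 40% they were 18.8% against 13.8%, with intervals that overlap in both steps. The GC box was in 25.3% against 11.1% at 50% or more, with intervals that do not overlap (16.7% to 35.5% against 7.45% to 15.8%), and in 9.04% against 4.99% from 40% to 50%, where they do. Under 40% it was in 1.98% against 2.26%, so the share was not higher at every step. Place differed within these steps too. At 50% GC or more, 6.59% of the ncRNA-gene summits were in coding exons, against 42.8% of the ncRNA-free summits. The shares were 7.91% against 42.1% from 40% to 50%, and 7.92% against 26.9% under 40%. The part of place in the motif shares was not tested.

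**Figure D4:**
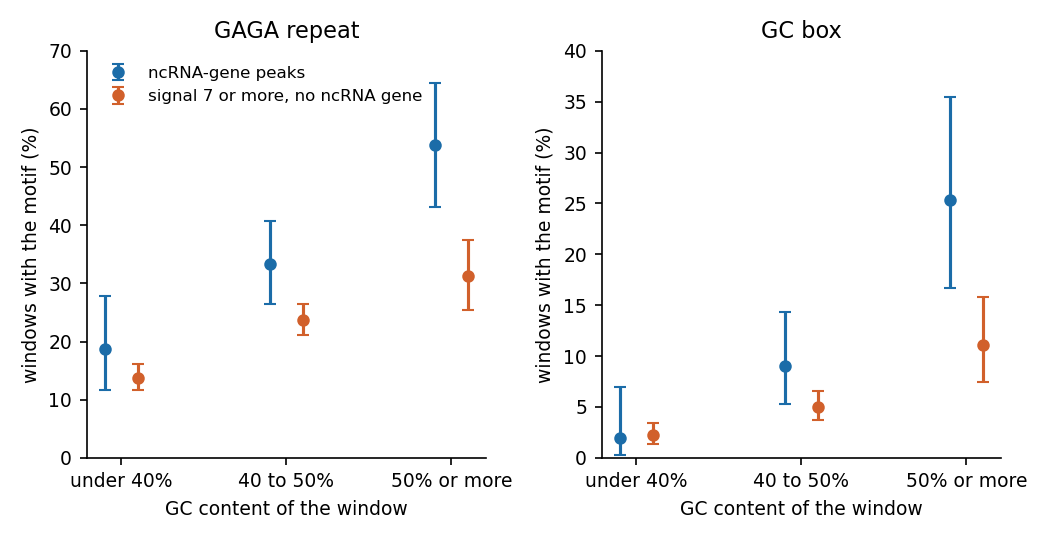
Share of windows with the GAGA repeat (left) and the GC box (right) by GC content of the window, in the ncRNA-gene peaks (n = 101, 177 and 91) and in ncRNA-free peaks of signal 7 or more (n = 929, 961 and 243). Bars are exact 95% binomial intervals. Both motifs were found more often in the ncRNA-gene peaks at 50% GC or more, 53.8% against 31.3% and 25.3% against 11.1%. At that step 6.59% of the ncRNA-gene summits and 42.8% of the ncRNA-free summits were in coding exons, a difference whose part was not tested.

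GAGAGA was more frequent at higher signal in both groups. It was in 51.2% of the 121 ncRNA-gene peaks with signal 10 or more, against 30.4% of 408 ncRNA-free peaks, and in 26.2% against 17.9% at signals from 7 to 10. The median GC content of the ncRNA-gene peaks moved with it, at 48.8% for signals of 10 or more and 42.8% for 7 to 10, and its part in the difference was not tested. The GC box was in 14.9% (interval 9.06% to 22.5%) of the ncRNA-gene peaks at 10 or more and in 9.27% (5.97% to 13.6%) at 7 to 10, with overlapping intervals, against 5.64% and 4.23% of the ncRNA-free peaks. Leaving out a replicate kept the GAGA shares apart, at 31.3% against 18.1% without replicate 1 and 31% against 15.5% without replicate 2. The GC box share was 12.4% against 4.36% without replicate 1, but 7.04% against 4.43% without replicate 2. By position, GAGAGA was in 41.5% of the windows with a summit inside an ncRNA gene, 42.6% at 1 to 100 bp and 23.7% at 101 to 500 bp.

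The nuclear receptor motifs showed no such gap. The nuclear receptor element AGGTCA was in 21 ncRNA-gene peaks (5.69%, interval 3.56% to 8.57%), against 5.53% of the ncRNA-free peaks and 5.55% of all nuclear candidates. Its variant AAGTCA was in 30 (8.13%, 5.55% to 11.4%), against 9.70%. The strongest peaks with AGGTCA were at R12E2.18 (18.1) and C18H2.7 (15.7), both picked after their values were seen.

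Elements of RNA polymerase III promoters had shares whose intervals overlap those of the ncRNA-free peaks. The B box GTTCNANNC was in 27 (7.32%, interval 4.88% to 10.5%), against 6.89% (5.85% to 8.05%), and the A box in 13 (3.52%, 1.89% to 5.95%), against 2.95% (2.28% to 3.76%). Only the window at F35H8.9 (7.05) held both. The E box CACGTG was in 5.69% against 4.83% and the telomere-type TTAGGC in 4.88% against 5.39%.

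The GATA factor site TGATAA was less frequent, in 37 ncRNA-gene peaks (10%, interval 7.16% to 13.6%), against 15.4% of the ncRNA-free peaks (13.9% to 17%), and these intervals do not overlap. Within GC steps they do overlap, at 15.8% against 21.7% under 40%, 10.2% against 12.8% from 40% to 50%, and 3.3% against 1.65% at 50% or more. The share was 4.96% against 11.5% at signal 10 or more, and 4.88% against 7.88% in windows reaching 50 bp from the summit. The run TTTTTT was in 34.7% (interval 29.8% to 39.8%), against 39.7% of the ncRNA-free peaks (37.6% to 41.8%, which overlaps) and 51.9% of the weaker candidates near ncRNA genes. Within GC steps the shares were 62.4% against 61.7% under 40%, 28.8% against 26.1% from 40% to 50%, and 15.4% against 9.05% at 50% or more, so none of the steps had it lower in the ncRNA-gene peaks. The TATA box TATAAA was in 7.86% (5.33% to 11.1%), against 11.6% (10.3% to 13%, which also overlaps), and without replicate 2 in 13.4% against 13.8%. Within GC steps its share was lower only under 40%, at 12.9% against 20.2%. It was 6.78% against 6.04% from 40% to 50%, and 4.4% against 0.412% at 50% or more. The intervals overlap at each of these steps.

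**Figure D5:**
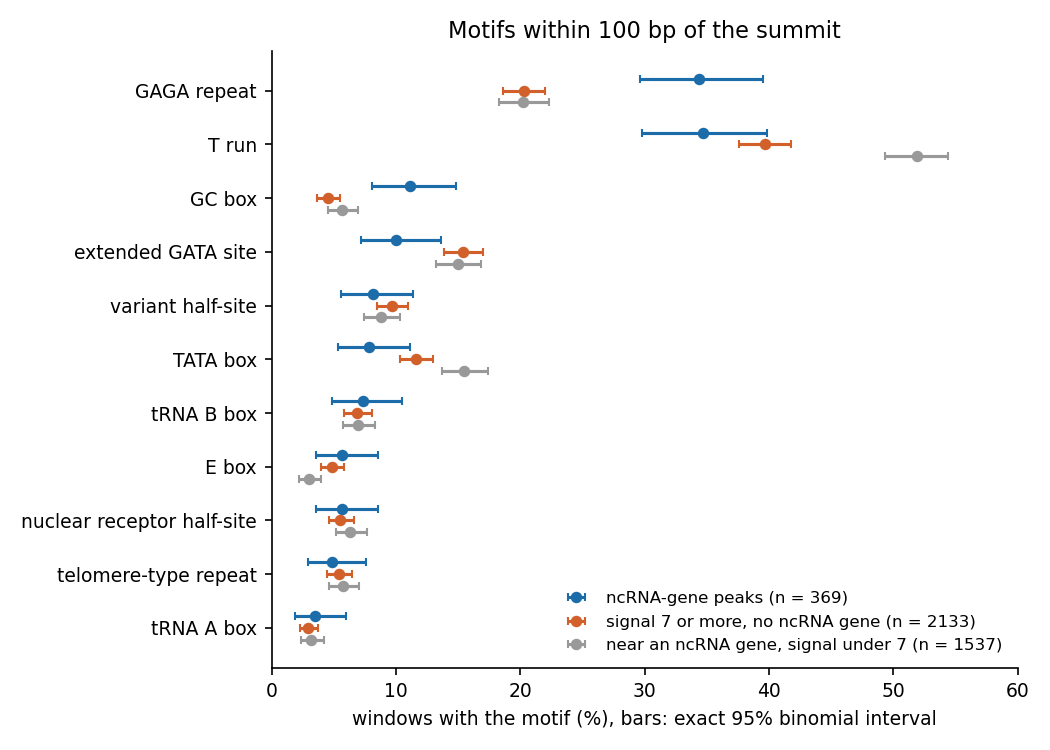
Share of windows, reaching 100 bp from the summit both ways, with each of 11 motifs, in the 369 ncRNA-gene peaks, 2133 ncRNA-free peaks of signal 7 or more and 1537 weaker candidates near ncRNA genes. Points are percentages with exact 95% binomial intervals; the GAGA repeat (34.4%, 20.3% and 20.2%) and the GC box (11.1%, 4.5% and 5.66%) stand apart, and the nuclear receptor element does not (5.69%, 5.53% and 6.31%).

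The peaks were spread over 352 different nearest genes, and 19 ncRNA genes lay within 500 bp of 2 or more peaks. In all, 23 peaks overlapped another of the 369. The longest of these genes was C30E1.9, a long ncRNA of 14770 bp at chrX:16929914-16944683, with 4 peaks. Its strongest (signal 17.7) lay 169 bp upstream of the 5′ end and ranked 130 in replicate 1 and 104 in replicate 2. The other 3, of signals 13.4, 8.40 and 7.86, were inside the gene and were listed in replicate 2 only, the first 2 of them over the same replicate 2 peak. F48C1.13, in let-526, had 3 peaks of signals 7.57 to 11.8, and W06H8.5 and F16A11.5, of 2525 and 2454 bp, had 2 each, from 7.26 to 7.88.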

How the data were processed

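The authors deposited narrowPeak lists in ce11 for each replicate, for the pooled replicates and for the optimal list thresholded by irreproducible discovery rate. Per the deposited README files, each list of peaks and background was derived from the ChIP alignments and a further file not described there, and the optimal list from the pooled list and those of both replicates. No label or file header names an aligner, a peak caller or the threshold. Column 7 is the authors' signal value per peak, on a scale not stated, and column 9 is the −log10 q-value in the deposited layout; 91 of the 369 peaks share its highest value. ce10 lists were not used.

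Peaks were placed by summit with the Ensembl release 115 annotation of WBcel235, the assembly also called ce11, and all nuclear peaks lay within its chromosome lengths. Replicate listing needed an overlap of 1 bp. Sequence came from RefSeq; the window at F46F2.12 was not printed, since it shares 31 bases with a chromosome left out of printing. Another window is not reported here. Python 3.11.15, numpy 2.4.6, pandas 2.3.3, scipy 1.17.1 and matplotlib 3.10.9 were used. The placing code was tested on simulated data. Peaks of 1 group give no comparison between conditions, so no test was run, and shares carry exact 95% intervals.

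Peaks, lists, motifs and alternatives were chosen with earlier results of these data known. Named are the 12 strongest peaks, those on the optimal list, 3 on each side of the threshold, and ncRNA genes near 2 or more peaks; other names were chosen after their values were seen. Alternatives were other distances, signal thresholds, windows, overlap rules and biotypes, and the strongest 3997 nuclear peaks of 1 replicate alone.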

Additional observations from a re-analysis of the deposited data

How the results depend on the processing

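No paired analysis was possible because both replicates belong to 1 group. The count of 369 peaks became 121 at signal 10 or more and 856 at 5 or more, which fewer and more candidates reach by construction, and stayed within 1.5 times under the other alternatives, from 271 within 200 bp to 489 within 1000 bp (355 without replicate 1, 284 without replicate 2). At signal 10 or more the shares were 57.9% listed in replicate 1, 97.5% in replicate 2, 7.44% on the optimal list, 51.2% with GAGAGA and 14.9% with the GC box, with a median GC of 48.8%. The share listed in replicate 1 was 23.6% by summits within 100 bp, 29% by an overlap of 50% of the peak and 26.8% among the strongest peaks only; for replicate 2 it was 82.4% by summits and 65.9% among the strongest. Windows of 50 bp on each side held GAGAGA in 20.9%, against 12.1% of the ncRNA-free peaks, and the GC box in 4.88%, against 2.48%. Counting summits within 100 bp of an ncRNA gene gave 58.8%. With 1 replicate alone, median GC was 43% to 43.3%, summits inside an ncRNA gene 25% to 29.9%, and the GC box share 7.04% to 12.4%; the cause was not tested. Of the 45 values of the other motifs, 12 left their interval. Restricting GC and motifs to summits with sequence found once, chosen after seeing the data, left median GC and all 11 motif shares within their intervals. Read depth is unknown.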

Other observations

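Some protein-coding genes hosted several of the peaks. T28B11.1, on chromosome V, held 5, at T28B11.7 (signal 9.82), T28B11.13 (9.33), T28B11.18 (8.58), T28B11.6 (7.27) and T28B11.25 (7.20), and replicate 1 listed 1 of them. The ppfr-1 gene, for a regulatory subunit of protein phosphatase 4, also held 5, with signals of 7.26 to 9.98, and let-526 held 4, of 7.57 to 20.4. The kin-20 gene and lin-42, the worm Period homolog, held 2 each. Antisense RNA genes lay near 5 of the peaks, 3 of them at F48C1.13 in let-526 and 2 in ppfr-1.

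Summit sequence found over 5 times in the genome was seen at 5 of the peaks. Beside F46F2.12 and C15F1.14 these were Y57A10A.40 (signal 12.5, 2446 copies of the 31 bases), K08A2.12 in an intron of the receptor gene nhr-88 (10.7, 12 copies) and Y49G5B.3 (8.23, 17 copies). Windows with at least 50% of bases in lower case in the RefSeq sequence made 4.07% of the ncRNA-gene peaks, against 6.84% of the ncRNA-free peaks and 11.0% of the weaker candidates near ncRNA genes.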
